A study of Rattus norvegicus with 14 samples.

Results

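Liver RNA from rats on a magnesium-deficient diet was compared with liver RNA from rats on a magnesium-supplemented diet. The arrays were chosen by their titles, MG++ supplemented 1 to 5 and Mg++ deficient 11 to 14. This gave 9 of the 14 arrays of the series, 5 supplemented and 4 deficient. The other 5 arrays, from a standard diet, shared the estimate of the spread and are given where they help to read a value. Each array measured RNA of the left lateral lobe, taken at necropsy, with 8799 Affymetrix rat probe sets, from about 5 micrograms of total RNA. The labels give no magnesium content, duration, strain, age, sex or further treatment for any diet, so these remain unknown for both groups. Whether the arrays are separate animals is not stated either, and p-values therefore measure only the spread between these samples.

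Magnesium binds ATP and is a cofactor of kinases, polymerases, ribosomes and glutathione synthesis. The liver takes it up and stores it through channels and carriers such as TRPM7, MAGT1 and the SLC41 proteins, and the CNNM proteins, which bind the PRL phosphatases encoded by the Ptp4a genes, act in its export or exchange. In rodents, diets low in magnesium are known for inflammation, oxidative stress and altered blood lipids, so genes of those pathways were read as lists.

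1 gene passed the test's threshold, with a higher signal in the deficient than in the supplemented livers. Crispld2, the gene of a secreted protein with LCCL domains, was 3.80-fold higher than in the supplemented livers (limma, Benjamini-Hochberg adjusted p = 0.0233, n = 4 and 5). It was the only one of 5133 probe sets tested to pass an adjusted p of 0.05, a share of 0.0195%, or 0.0325% of the 3073 genes measured. Its mean log2 signal was 5.17 on the deficient, 4.94 on the standard and 3.24 on the supplemented arrays, so the supplemented arrays stood apart from both other diets. No gene was called lower by this test. At an unadjusted p under 0.05 there were 669 probe sets, or 13% of those tested, with 352 higher (6.86%) and 317 lower (6.18%) in the deficient livers. The direction of this split depended on the scaling: 52.6% of the 669 were higher after quantile normalisation, against 35.0% with the signals as deposited and 79.1% with each array centred on its median. The median difference over all genes moved from 0.05 to -0.03 and 0.21 on the log2 scale under these scalings, so small differences in 1 direction cannot be read apart from the scaling.

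The tissue identity was clear on both diets. All 13 hepatocyte markers on the array were measured, their summed signal was 60554 to 64316 units in the deficient and 58907 to 65048 units in the supplemented livers, and none of the 13 reached an unadjusted p of 0.05. Albumin (Alb), the main secreted liver protein, differed by 0.02 ± 0.07 (SE) on the log2 scale. In bulk liver a lower signal can come from fewer cells of a type or from less RNA per cell, and these cannot be told apart.

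The deficient and supplemented arrays also differed in a control measurement. Affymetrix arrays carry separate probe sets along the Gapdh and beta-actin transcripts, and a higher 3'/5' signal ratio means that the 5' end gave less signal relative to the 3' end. The log2 Gapdh 3'/5' ratio was 0.77, 1.00, 0.76, 1.12 and -0.12 on supplemented arrays 1 to 5, and 1.92, 1.64, 2.68 and 1.12 on deficient arrays 11 to 14. Deficient array 13 was the highest, supplemented array 5 the lowest, and the lowest deficient array, 14, stood level with the highest supplemented array, 4. The group means were 1.84 ± 0.65 (SD, n = 4) and 0.71 ± 0.49 (SD, n = 5), a difference of 1.13 (exact two-sided permutation test p = 0.0159, adjusted p = 0.0476 over 6 array measures).

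The middle/5' ratio of Gapdh did not overlap between the diets. It ran from 0.61 to 1.33 on the deficient and from 0.06 to 0.39 on the supplemented arrays (exact permutation p = 0.00794, the smallest that 126 arrangements can give, adjusted p = 0.0476). For Gapdh 3'/middle the difference was 0.53 (exact permutation p = 0.0476, adjusted p = 0.0714). Beta-actin gave 1.88, 1.82, 2.85 and 0.85 on deficient arrays 11 to 14 against 0.77 to 1.29 on the supplemented arrays, a difference of 0.89 (exact permutation p = 0.0476, adjusted p = 0.0714). Here array 14 lay inside the supplemented range and the other 3 deficient arrays above it. Supplemented array 5, the lowest array in Gapdh 3'/5', was the highest supplemented array in beta-actin, at 1.29, so the control ratios disagree on it. The median signal (22.8 units deficient, 26.9 units supplemented, exact permutation p = 0.262) and the mean rank correlation with the other arrays (exact permutation p = 0.968) did not pass.

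**Figure D1:**
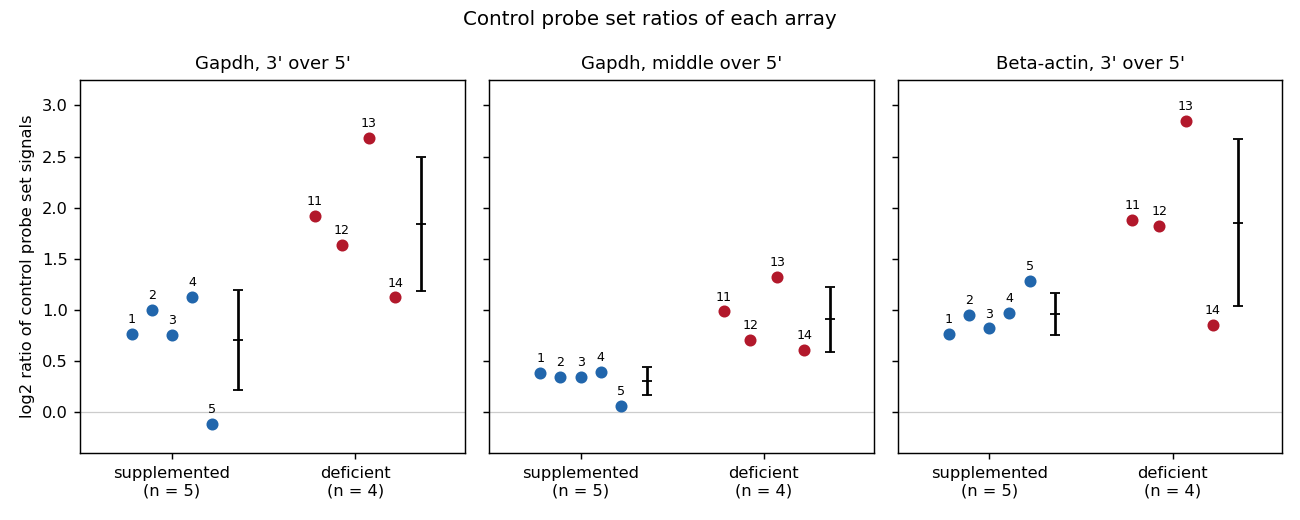
Log2 ratios of Affymetrix control probe set signals on each array (points, labelled by array number), with the mean and SD of each diet as a bar at the side. The Gapdh middle/5' ratios do not overlap (0.61 to 1.33 deficient, 0.06 to 0.39 supplemented), while deficient array 14 lies close to or within the supplemented arrays in the 3'/5' ratios (1.12 for Gapdh, 0.85 for beta-actin).

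Because this ratio moved with diet, every difference was also fitted with the log2 Gapdh 3'/5' ratio of the array as a covariate. With it, no probe set passed an adjusted p of 0.05 and 113 (2.2%) had an unadjusted p under 0.05, 59 higher (1.15%) and 54 lower (1.05%). With the beta-actin ratio instead there were 244 (4.75%). Of the 669 probe sets, 58 were among the 113, which is 8.67% of the first set and 51.3% of the second. In 606 of the 669 (90.6%) the difference was smaller with the ratio in the fit, and in 31 its sign turned. Their median absolute difference went from 0.70 to 0.32 on the log2 scale, while the median standard error over all probe sets went from 0.26 to 0.33. With 9 arrays in which ratio and diet go together, a part of each difference that belongs to diet and a part that belongs to the ratio cannot be told apart.

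The standard-diet arrays gave a second look at the same measure, since they span ratios of 1.04 to 2.65 at 1 diet. For each probe set the slope of its log2 signal on the log2 Gapdh ratio was taken over those 5 arrays. Across the 669 probe sets, the slope and the deficient minus supplemented difference had the same sign in 553 (82.7%), with Pearson's r of 0.74. Across all 5133 the share was 66.8% and r was 0.44. Probe sets of one array are not independent, so these values describe the arrays and carry no p. The relation was weaker without standard array 10, which has the ratio of 2.65. Without it, r was 0.43 and the share of equal sign 62.9% for the 669, and 0.18 and 54.4% for all. For the differences with the ratio in the fit, the relation to the slope over all 5 standard arrays turned. There r was -0.14 and the share of equal sign 47.5% for all, and -0.55 and 27.4% for the 113. The standard arrays entered that fit too, so these values are not independent of the slope. Where a value with the ratio is given, it thus stands beside the value without it, not in its place. It is not printed for every gene, and a difference printed alone may also move with the ratio.

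**Figure D2:**
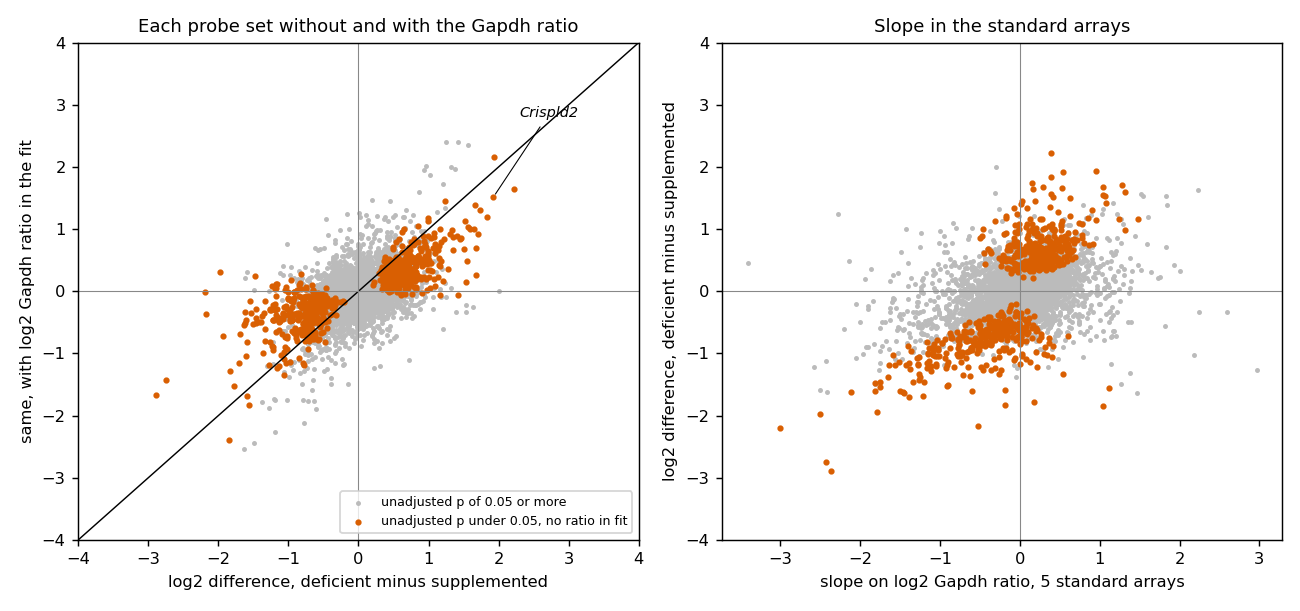
Each point is 1 of 5133 probe sets; orange points are the 669 with an unadjusted p under 0.05 when the ratio is not in the fit. Left, the log2 difference (deficient minus supplemented) without (x axis) and with (y axis) the log2 Gapdh ratio in the fit, where most orange points lie nearer 0 on the y axis (606 of 669) and Crispld2 stays high; right, the slope on the log2 ratio over the 5 standard arrays (x axis) against the difference (y axis), with equal sign in 553 of the 669.

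Array 14 had the lowest ratio of the deficient arrays and the profile closest to the supplemented livers. Of the 669 probe sets, its signal lay within the range of the 5 supplemented arrays in 317 (47.4%), against 96 (14.3%) for array 11, 137 (20.5%) for array 12 and 56 (8.37%) for array 13. The probe sets were chosen with all 4 arrays in the group mean, so the order of the arrays is a description. Over all 5133 probe sets the shares were 66.9% for array 14 and 58.5%, 63.4% and 54.4% for arrays 11, 12 and 13. The order of these shares was the order of the ratios, from 1.12 to 1.64, 1.92 and 2.68.

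**Figure D3:**
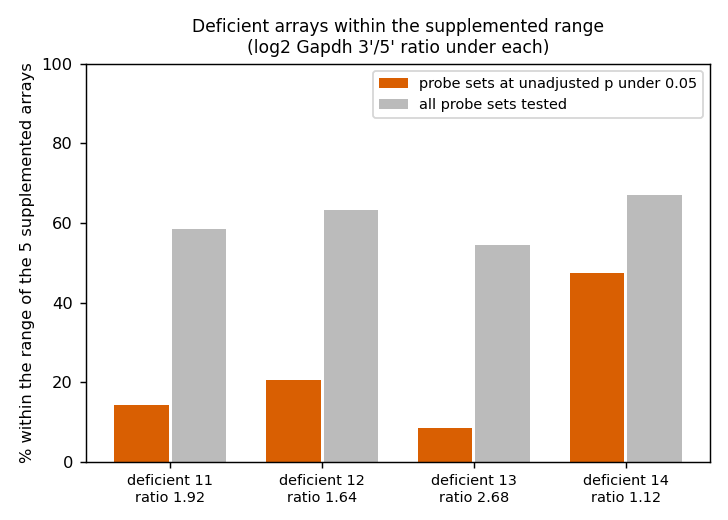
Share of probe sets (y axis, percent) whose signal on a deficient array lies between the lowest and highest of the 5 supplemented arrays, for the 669 probe sets with an unadjusted p under 0.05 (orange) and for all 5133 (grey). Array 14, with a log2 Gapdh ratio of 1.12, has 47.4% of the 669 within the range, and array 13, with a ratio of 2.68, has 8.37%.

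Crispld2 had the smallest p of all genes. Its log2 signal was 3.47, 3.13, 2.78, 3.33 and 3.52 on supplemented arrays 1 to 5, and 5.04, 5.26, 5.70 and 4.68 on deficient arrays 11 to 14. Each deficient array lay above each supplemented one, and array 14 was again the lowest deficient array, still 1.16 above the highest supplemented array. The standard arrays, at 4.94 ± 0.41 (SD, n = 5), lay with the deficient ones. The difference was 1.93 ± 0.28 (SE) on the log2 scale. With the Gapdh ratio in the fit it was 1.52 ± 0.34 (limma, adjusted p = 1), and with the beta-actin ratio 1.52 (adjusted p = 0.358).

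All 5 supplemented values of Crispld2 were below the filter level of 14.3 units, though none was at the floor, so the low side of this difference rests on dim signals. The gene passed the threshold in 13 of 25 alternative analyses, with differences between 1.52 and 2.08 and adjusted p between 0.00354 and 1. It missed with the signals as deposited (1.71, adjusted p = 0.226) and when only the arrays of these 2 diets entered the fit (adjusted p = 0.133). It also missed in 7 of the fits that left out 1 array, namely supplemented 1, 3 or 4, standard 8, and deficient 11, 12 or 13 (adjusted p from 0.0511 to 0.165). In those 7 fits the difference ran from 1.74 to 1.98.

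The remaining genes described here did not pass the adjusted threshold, and their values are given without a call. At an unadjusted p under 0.05, 378 of 3073 genes (12.3%) stood apart, 226 higher (7.35%) and 152 lower (4.95%). Without regard to p, 56.3% of the genes were higher and 43.7% lower. With the Gapdh ratio in the fit no gene was called and 67 (2.18%) had an unadjusted p under 0.05, 38 higher (1.24%) and 29 lower (0.944%). In 147 genes (4.78%) the deficient and supplemented arrays did not overlap, 99 higher (3.22%) and 48 lower (1.56%). The 12 higher and 12 lower genes with the smallest p among those without overlap are described next; apart from Crispld2 their adjusted p ran from 0.214 to 0.272 (limma). With the Gapdh ratio in the fit all 24 kept their direction, 21 had a smaller difference, and 12 had an unadjusted p under 0.05. The 24 were chosen on these same arrays for a small p without the ratio. These counts are therefore partly set by the choice and cannot be read against the 2.18% of all genes. The standard arrays' mean lay between the means of the other diets in 23 of the 24, which is partly set by choosing genes at the extremes of those diets.

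Among the higher genes were a carrier and a receptor of the cell surface. Slc7a2, a cationic amino acid transporter that brings arginine into liver cells, had log2 signals of 6.32, 6.08, 6.66 and 6.97 on the deficient arrays and 5.94, 5.52, 4.92, 5.83 and 4.93 on the supplemented arrays. The highest supplemented array was 0.14 below the lowest deficient one, and array 14, with the low control ratio, was the highest of all. The difference was 1.08 ± 0.24 (SE), and 0.94 ± 0.33 with the Gapdh ratio. Nrp1, a co-receptor for semaphorins and vascular endothelial growth factor, was 6.20 ± 0.10 (SD, n = 4) against 5.46 ± 0.29 (SD, n = 5), a difference of 0.73 (0.57 with the ratio). Its lowest supplemented value, 4.95, was on array 5.

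The mitochondrial chaperone Trap1, of the HSP90 family, had log2 signals of 9.17, 8.83, 8.55 and 8.77 on the deficient and 8.33, 8.04, 7.60, 8.20 and 8.10 on the supplemented arrays. The groups did not overlap, and the highest array was 11 rather than 13, the array with the highest control ratio. Its difference was 0.78 ± 0.18 (SE) and stayed at 0.74 ± 0.24 with the Gapdh ratio. Over the standard arrays its slope on the log2 ratio was 0.19, and 0.61 without standard array 10. Trap1 was the member of the 18 measured cytosolic and mitochondrial heat shock genes with the smallest p; 9 of the 18 were higher and 9 lower, with a median of -0.03 (0.09 with arrays centred on their medians).

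Hdac6, a deacetylase of tubulin in the cytoplasm, was 6.32, 6.43, 6.46 and 6.26 on the deficient and 5.79, 5.83, 5.80, 5.87 and 5.22 on the supplemented arrays. The deficient arrays lay within 0.20 of one another, above all of the others, and the difference was 0.67 ± 0.17 (SE), or 0.52 with the ratio. Eed, a subunit of the Polycomb complex that methylates histone H3, differed by 0.94 ± 0.25, and by 0.53 with the ratio. Tor1aip1, a partner of torsinA at the inner nuclear membrane, was 0.99 ± 0.22 higher (0.62 with the ratio), and both of its probe sets had that sign. The cohesin loader Nipbl differed by 1.74 ± 0.43 (1.30), with 3 of 5 supplemented arrays below the filter level. Ppp1r12a, which targets myosin phosphatase, differed by 1.08 ± 0.29 (0.70), Uaca by 0.89 ± 0.21 (0.64) and Xylt2, which starts the sugar chains of proteoglycans, by 0.57 ± 0.15 (0.38). Prx, a myelin scaffold, differed by 1.35 ± 0.35 (0.87), with 3 of 5 supplemented arrays below the filter level.

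**Figure D4:**
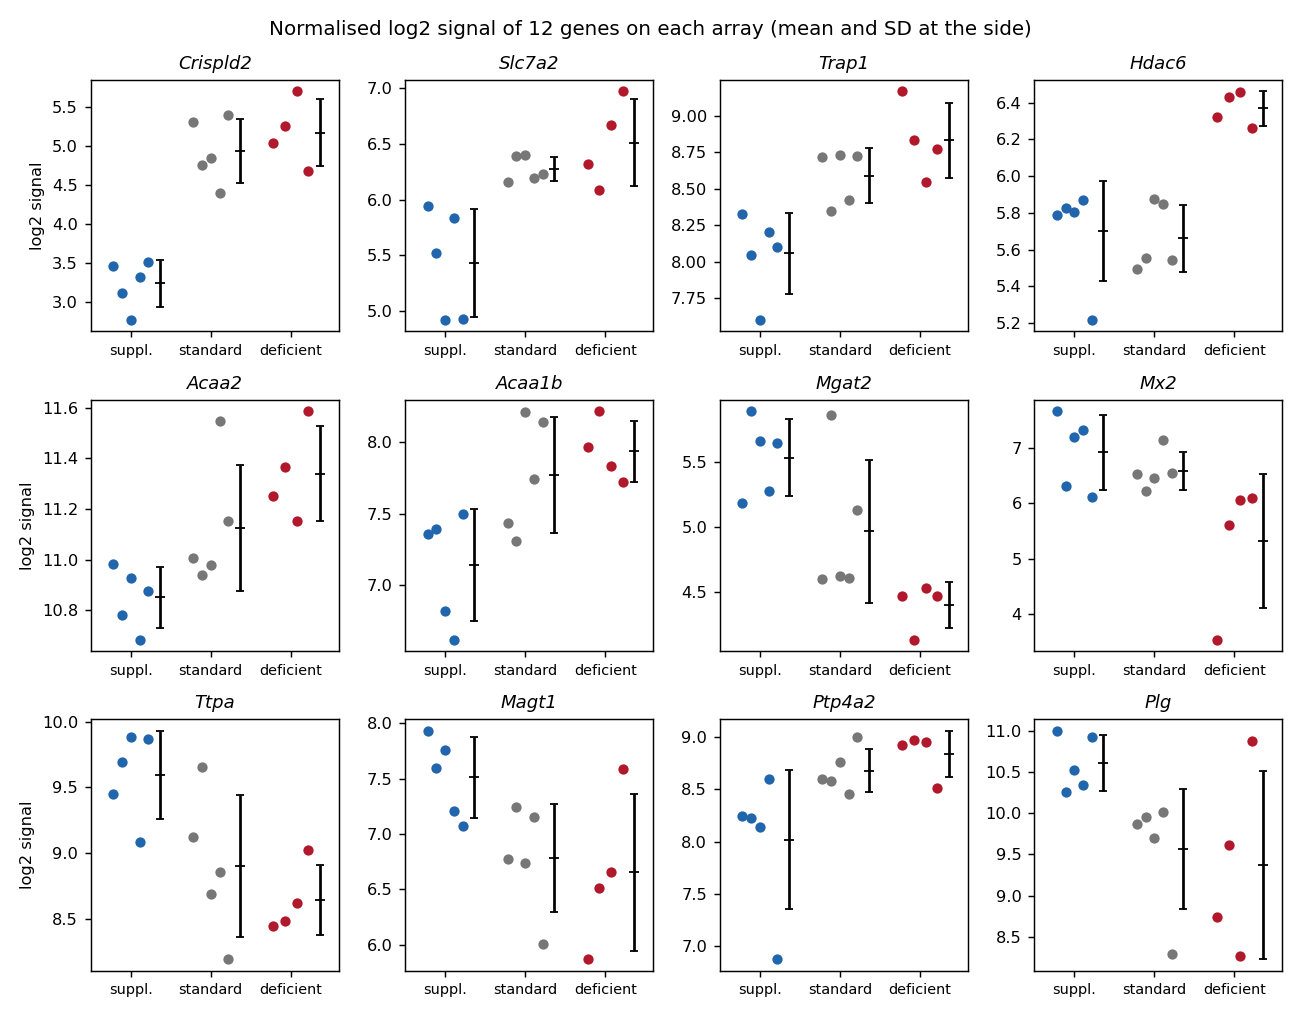
Normalised log2 signal (y axis) of 12 genes on each supplemented, standard and deficient array (points), with the mean and SD of each diet at the side. Crispld2, Slc7a2, Trap1, Hdac6, Acaa2 and Acaa1b are higher and Mgat2, Mx2 and Ttpa lower on every deficient than on every supplemented array, whereas for Magt1, Ptp4a2 and Plg the diets overlap.

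Mgat2, the Golgi enzyme that adds a second branch to N-linked sugar chains, had log2 signals of 4.47, 4.13, 4.53 and 4.47 on the deficient and 5.18, 5.89, 5.66, 5.28 and 5.65 on the supplemented arrays. All deficient arrays were below all supplemented ones, by at least 0.66. The difference was -1.14 ± 0.26 (SE), and it was -1.20 ± 0.36 with the Gapdh ratio, so it did not shrink. Pdia4, a disulfide isomerase of the endoplasmic reticulum, differed by -0.84 ± 0.26, and by -0.39 with the ratio. Dnajc1, a co-chaperone in the membrane of the endoplasmic reticulum, differed by -0.78 ± 0.25 (-0.68), with 3 of 4 deficient arrays below the filter level.

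Ttpa, the hepatic transfer protein that exports vitamin E to the blood, was 8.44, 8.49, 8.62 and 9.02 on the deficient and 9.45, 9.69, 9.88, 9.08 and 9.87 on the supplemented arrays. Supplemented array 4 and deficient array 14 came within 0.06 of each other; the remaining arrays were further apart. The difference was -0.95 ± 0.26 (SE) and -0.46 ± 0.29 with the ratio, and over the standard arrays its slope on the log2 ratio was -0.62, but -0.086 without standard array 10. Coq3, a methyltransferase of ubiquinone synthesis, differed by -0.48 ± 0.15 (-0.34 with the ratio).

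Mx2, an interferon-induced GTPase, was 3.55, 5.61, 6.06 and 6.09 on the deficient and 7.66, 6.31, 7.19, 7.32 and 6.12 on the supplemented arrays. Array 11 was far below the rest, and arrays 13 and 14 almost reached the lowest supplemented arrays. The difference was -1.59 ± 0.46 (SE), -1.68 with the ratio, and -0.999 without array 11. Of the 18 measured genes of the interferon response and antigen presentation, 8 were higher and 10 lower, with a median of -0.08 (0.15 with arrays centred on their medians). At an unadjusted p under 0.05, 2 were lower, against 4.95% of all genes. With the ratio in the fit 3 of the 18 were lower at that p, Oas1a (-0.98) among them, against 0.944% of all genes.

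Met, the receptor of hepatocyte growth factor, was 3.85, 2.96, 3.07 and 4.10 on the deficient arrays and 4.57 to 4.81 on the supplemented arrays. The difference was -1.23 ± 0.32 (SE) and -0.88 with the ratio, and 2 of 4 deficient arrays were below the filter level. Its ligand Hgf was 4.92 ± 0.45 (SD, n = 4) against 3.78 ± 1.07 (SD, n = 5), a difference of 1.14 ± 0.47 whose arrays overlapped between diets. The difference was 0.22 with the ratio and 0.69 without supplemented array 5. For Hgf, 2 of 5 supplemented arrays were below the filter level, and array 5 among them was at the floor. Pdcl, a chaperone of G protein subunits, differed by -0.73 ± 0.19 (-0.63), Hbp1, a transcriptional repressor, by -0.76 ± 0.23 (-0.48) and Ppp1r21 by -0.47 ± 0.15 (-0.49). Lamp2, a lysosomal membrane protein, differed by -0.65 ± 0.20 (-0.44 with the ratio and -0.39 with arrays centred on their medians), but 1 of its 3 probe sets had the opposite sign. The probe set annotated to the olfactory receptor gene Or1f20 differed by -1.61 ± 0.53, and by -0.46 with the ratio.

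Magnesium handling genes showed no call. Of 11 listed genes on the array 9 were measured; 2 were higher and 7 lower, with a median of -0.24 (-0.12 with the Gapdh ratio and -0.055 with arrays centred on their medians) against 0.05 for all genes. Ptp4a2, a PRL phosphatase, was 8.93, 8.97, 8.96 and 8.51 on the deficient and 8.25, 8.23, 8.14, 8.60 and 6.87 on the supplemented arrays. Only array 14 lay among the supplemented values, and array 5 was far below its group. The difference was 0.82 ± 0.28 (SE, limma adjusted p = 0.28), 0.54 without array 5 and 0.19 with the ratio. Magt1, a magnesium transporter and subunit of the oligosaccharyltransferase, was 5.87, 6.51, 6.66 and 7.58 on the deficient and 7.93, 7.59, 7.76, 7.21 and 7.07 on the supplemented arrays.

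In Magt1, arrays 11, 12 and 13 were below and array 14 inside the supplemented range. Its difference was -0.86 ± 0.32 (adjusted p = 0.328) and -0.39 with the ratio, and its slope over the standard arrays was -0.76 (-0.80 without standard array 10). The related phosphatase Ptp4a1 differed by -0.31 ± 0.23, by -0.64 with the ratio, by -0.12 without supplemented array 2, by -0.19 without deficient array 12 and by -0.055 with arrays centred on their medians. The carriers Slc41a3 (-0.31) and Slc41a2 (-0.14), Nipal2 (-0.24), the CNNM family member Cnnm4 (0.14), and the growth factor Egf (-0.32) and its receptor Egfr (-0.08) had unadjusted p above 0.2.

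In fat oxidation, a pair of differences were about as large with the control ratio as without it. Acaa2, the mitochondrial thiolase that ends each round of beta-oxidation, was 11.25, 11.37, 11.15 and 11.59 on the deficient and 10.98, 10.78, 10.93, 10.68 and 10.88 on the supplemented arrays. The diets did not overlap and array 14 was the highest. The difference was 0.49 ± 0.14 (SE) and grew to 0.67 ± 0.17 with the ratio, which placed Acaa2 among the 4 genes with the smallest p in that fit, although its adjusted p there was 1. The peroxisomal thiolase Acaa1b, which has a close paralog, was 7.97, 8.22, 7.83 and 7.72 against 7.36, 7.39, 6.82, 6.62 and 7.50, again without overlap. It differed by 0.80 ± 0.24, and by 0.77 ± 0.33 with the ratio.

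Of the 18 measured peroxisomal genes and PPAR-alpha targets, 10 were higher and 8 lower, with a median of 0.25 (0.35 with the ratio). 2 were higher and 1 lower at an unadjusted p under 0.05, against 7.35% and 4.95% of all genes. The higher ones were Acaa1b and Abcd3, a peroxisomal fatty acid transporter (0.92), whose other probe set had the opposite sign (-0.96). Ehhadh, a peroxisomal beta-oxidation enzyme, was the lower one (-0.50, and -0.23 with the ratio). With mean values over all probe sets of a gene the list's median was 0.01. Mitochondrial fatty acid oxidation had 11 of 17 genes higher, with a median of 0.11 that turned in 4 of 27 alternatives. Acadm, the medium-chain dehydrogenase, went the other way from Acaa2 (-0.48 ± 0.18, -0.23 with the ratio and -0.20 with arrays centred on their medians).

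Fat synthesis genes were more often lower and cholesterol synthesis genes more often higher, without a call in either. Of 16 fatty acid synthesis genes 5 were higher and 11 lower, with a median of -0.05 (0.20 with arrays centred on their medians). At an unadjusted p under 0.05, 3 were lower, against 4.95% of all genes. These were the desaturase Scd2, the acyltransferase Gpam and the carboxylase Acaca. Scd2 differed by -0.94 (-0.63 with the ratio and -0.55 without array 11). Gpam differed by -1.60 (-0.82 with the ratio), with a second probe set at 0.64. Acaca differed by -0.70 (-0.28 with the ratio). Of 15 cholesterol synthesis genes 11 were higher and 4 lower, with a median of 0.18 (0.18 with the ratio) and none at an unadjusted p under 0.05. Mvd, an enzyme of the mevalonate pathway, was the largest at 0.53 ± 0.31 (SE). The list's median stayed above 0 in all 27 alternatives and was lowest, at 0.03, without supplemented array 2.

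Apolipoproteins and lipoprotein enzymes had 12 of 15 genes higher, against 56.3% of all genes, with a median of 0.12 (0.03 with the ratio). At an unadjusted p under 0.05, 2 were higher, against 7.35% of all genes. Apoc4, a small apolipoprotein, was 11.08, 10.60, 11.11 and 10.71 against 10.23, 10.42, 10.32, 10.64 and 9.83. Array 12 lay just under supplemented array 4, and the difference of 0.59 ± 0.18 (SE) went to 0.17 with the ratio. Apob, the structural protein of very low density lipoprotein, differed by 0.35 ± 0.13 (0.25 with the ratio) in its brightest probe set, but another bright one of its 4 probe sets gave -0.14.

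Several genes of plasma proteins differed along with the control ratio. Plg, which encodes plasminogen, was 8.73, 9.61, 8.27 and 10.87 on the deficient and 11.00, 10.25, 10.52, 10.34 and 10.93 on the supplemented arrays. Arrays 11, 12 and 13 were low, lower the higher their Gapdh ratio, while array 14 was among the highest supplemented values. The difference was -1.24 ± 0.45 (SE), but 0.08 ± 0.32 with the Gapdh ratio, and the slope over the standard arrays was -1.16, or -0.49 without standard array 10. The murinoglobulin probe set Mug1, a protease inhibitor of the alpha-2-macroglobulin family with close paralogs, was 7.74, 8.05, 6.26 and 10.64 against 9.80 to 10.67. It had the same pattern, with a difference of -1.97 that was 0.31 with the ratio and a standard slope of -2.50 (-1.85 without standard array 10).

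Coagulation factor F9 was 6.71, 6.67, 6.76 and 8.43 on the deficient and 8.90, 8.31, 8.66, 7.97 and 7.23 on the supplemented arrays. Array 14 lay inside the supplemented range, and the difference of -1.07 ± 0.48 (SE) was -0.37 with the ratio. Factor F10 went the other way, at 11.50, 11.39, 11.40 and 10.72 against 10.60, 10.82, 10.61, 10.90 and 9.33. Its difference of 0.80 was 0.06 with the ratio and 0.51 without supplemented array 5. Another bright probe set of F10 differed by 0.29, and by 0.30 with the ratio, so it did not shrink. Of the 11 measured coagulation and fibrinolysis genes 4 were higher and 7 lower, with a median of -0.07 (0.19 with arrays centred on their medians). Gc, the vitamin D binding protein, was 12.76 ± 0.08 (SD, n = 4) against 12.96 ± 0.04 (SD, n = 5) and did not overlap between diets, but its difference of -0.21 was 0.08 when arrays were centred on their medians. Of 22 acute phase genes 11 were higher and 11 lower, with a median of -0.01 (0.24 with arrays centred on their medians). At an unadjusted p under 0.05 there was 1, against 12.3% of all genes. It was A2m (0.61, and 0.50 with the ratio), whose other probe sets had the opposite sign (-1.26 and -0.18).

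Glutathione and stress genes included both directions. Gclc, the catalytic subunit of the first enzyme of glutathione synthesis, was 4.58, 4.01, 4.24 and 6.09 on the deficient and 5.29, 6.07, 6.17, 5.04 and 6.12 on the supplemented arrays. Array 14 stood among the highest supplemented arrays, the other 3 below all of them. The difference of -1.01 ± 0.40 (SE) was -0.11 with the ratio. Gsr, glutathione reductase, differed by -0.60 ± 0.27 (-0.17 with the ratio), and its 3 probe sets shared that sign. Of 23 antioxidant genes 10 were higher and 13 lower, with a median of -0.05 (0.12 with arrays centred on their medians). At an unadjusted p under 0.05, 1 was higher and 2 lower, against 7.35% and 4.95% of all genes.

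Ddit3, the stress-induced transcription factor CHOP, was 7.16, 7.22, 7.12 and 6.66 on the deficient and 5.15, 6.91, 6.37, 5.16 and 4.10 on the supplemented arrays. The supplemented arrays spread widely and array 2 lay above array 14. The difference was 1.50 ± 0.48 (SE) and 0.67 with the ratio. The 18 measured genes of folding and stress in the endoplasmic reticulum had 10 higher and 8 lower, with a median of 0.03 (-0.02 with the signals as deposited and -0.27 with the mean over the probe sets of a gene), and Hspa5, the main chaperone there, differed by -0.34 ± 0.18. Sec61b, of the protein translocation channel, differed by -0.34 ± 0.14 without overlap, but by -0.087 with arrays centred on their medians. St13, an HSP70 partner, differed by -1.08 (-0.35 with the ratio), and the mitochondrial chaperone Hspa9 by -0.53 (-0.24 with the ratio and -0.28 with arrays centred on their medians), with both of its probe sets lower.

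Cytochrome P450 genes were split evenly, with 16 of 32 higher and 16 lower, and 2 of them lower at an unadjusted p under 0.05, close to the 4.95% of all genes. Of 28 conjugation enzymes 10 were higher and 18 lower, with 4 lower at that p. Cyp2c22 was 10.48, 10.83, 10.44 and 10.58 on the deficient and 11.17, 11.36, 10.64, 11.38 and 11.56 on the supplemented arrays, so that supplemented array 3 lay below deficient array 12. Its difference was -0.64 ± 0.20 (SE), and -0.43 ± 0.25 with the ratio and -0.37 with arrays centred on their medians. Gsta1, a glutathione transferase, was 11.11, 11.05, 11.08 and 11.32 against 11.48 to 11.62 without overlap, and its 3 probe sets were all lower; the difference was -0.39 ± 0.13 (-0.21 with the ratio and -0.13 with arrays centred on their medians). Probe sets of the Gsta, Ugt1a and Cyp2c families can share sequence among members, so which member gave a signal is uncertain. The probe set for Ugt1a5 differed by -1.46, but by -0.42 with the ratio, and array 14 lay with the supplemented arrays. The medians of the lists were 0.00 for cytochrome P450 and -0.18 for conjugation enzymes (0.03 and -0.02 with the ratio, 0.24 and 0.08 with arrays centred on their medians).

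Cytosolic ribosomal protein genes were mostly higher. Of 36 measured, 28 were higher and 8 lower, with a median of 0.12 against 0.05 for all genes, and 8 (of 36) were higher at an unadjusted p under 0.05 against 7.35% of all genes. With the Gapdh ratio the median was 0.01 and none of the 36 reached that p. Rps24 was 5.50, 5.35, 5.83 and 5.72 on the deficient and 5.27, 4.96, 5.22, 5.11 and 4.04 on the supplemented arrays, without overlap and with array 5 low. Rpl23 differed by 0.77 (0.27 with the ratio), but its other probe set by -0.02. Rpl35 differed by 0.36 (0.12). Of 36 genes of mitochondrial oxidative phosphorylation, 18 were higher and 18 lower, with a median of 0.00; the brightest probe sets of the cytochrome oxidase subunits Cox4i1 (0.31) and Cox6a1 (0.36) were higher, but 1 of 3 for Cox4i1 (-0.17) and 2 of 3 for Cox6a1 (-0.27 and -0.16) were lower. Uqcrfs1, the iron-sulfur protein of complex III, was -0.32 (0.01 with arrays centred on their medians).

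Nuclear receptors and liver transcription factors had 16 of 26 genes higher, with a median of 0.26 (0.11 with the ratio). Nr3c1, the glucocorticoid receptor, was 5.94, 5.58, 6.40 and 5.38 on the deficient and 4.95, 5.20, 4.68, 5.30 and 4.44 on the supplemented arrays. The diets did not overlap, though arrays 14 and 4 were within 0.08. Its difference was 0.91 ± 0.27 (SE), or 0.41 with the ratio, and its other probe set gave 0.18. Ppara, the receptor that drives fat oxidation genes, differed by 0.54 ± 0.30, and by 0.84 with the ratio. Igfbp1, a liver binding protein for insulin-like growth factors, was 8.96, 8.14, 9.40 and 9.05 against 9.35, 9.67, 9.55, 10.02 and 7.83. Array 5, the lowest supplemented array in the Gapdh ratio but the highest in the beta-actin ratio, was also lowest in Igfbp1. The difference was -0.40 ± 0.42 and ranged widely with the analysis. It was -0.76 without array 5 and -1.40 ± 0.41 with the ratio, but -0.15 without deficient array 12, -0.21 without supplemented array 4 and -0.17 with arrays centred on their medians.

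The list of calcium and sodium-potassium pumps and release channels had 6 of 16 genes higher, with a median of -0.03 (0.11 with arrays centred on their medians). At an unadjusted p under 0.05, 2 were higher, against 7.35% of all genes. These were the store-operated channel Orai1 (0.95, and 0.57 with the ratio) and the plasma membrane calcium pump Atp2b1 (1.00, and 0.56 without supplemented array 3, which was below the filter level). The circadian list had 2 of 9 genes higher, with a median of -0.20 (-0.28 with the ratio). Bmal1, which activates the clock genes, was the highest at 1.13 ± 0.62 (SE), and Dbp, an output gene of the clock, the lowest at -1.64 ± 1.34, so that neither stood clear of the spread between arrays. The time of day at necropsy is not given in the labels.

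Markers of other liver cell types were read beside these values. Stellate cell and fibroblast markers had 14 of 18 genes higher, against 56.3% of all genes, with a median of 0.37. At an unadjusted p under 0.05, 4 were higher, against 7.35% of all genes. The summed signal of the 18 was 5261 to 6689 units on the deficient and 4754 to 5606 units on the supplemented arrays, which overlap. The markers Des, Lum, Mmp2, Tgfb3 and Thy1 did not pass the filter and are not in this sum. The median was 0.11 with the Gapdh ratio and none of the 18 then reached that p. Pdgfra, a receptor of stellate cells, differed by 0.56 (0.37 without array 13), and by -0.0029 with the ratio. Tgfb1, a fibrogenic cytokine, differed by 1.31 (0.92), with 3 of 5 supplemented arrays below the filter level. The collagens Col1a1 and Col1a2 (0.11 and 0.36) had unadjusted p above 0.3 and Col3a1 was lower (-0.65).

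Kupffer cell and macrophage markers had 2 of 10 genes higher and 8 lower, where 43.7% of all genes were lower. Their median was -0.26 (-0.07 with the ratio and -0.08 with arrays centred on their medians). The 2 higher markers were Aif1, at 0.69 ± 0.40 (SE), and Lyz2, at 0.55 ± 0.49. With the ratio they differed by 0.07 and 0.14. Aif1 had the largest absolute difference of the 10. C1qc, a complement chain made by macrophages, differed by -0.57 (-0.09 with the ratio, and -0.30 without supplemented 5, standard 10 and deficient 13 together). Clec4f, a lectin specific to Kupffer cells, was 8.10 ± 0.18 (SD, n = 4) against 8.47 ± 0.13 (SD, n = 5), a difference of -0.37 without overlap between diets (-0.27 with the ratio and -0.13 with arrays centred on their medians). The summed Kupffer signal was 1461 to 1838 units deficient and 1597 to 2327 units supplemented, which overlap. Their part in the other differences was not tested. Endothelial (756 to 1046 against 839 to 1057 units), cholangiocyte (2068 to 2786 against 1741 to 3561 units) and lymphocyte markers (236 to 309 against 257 to 326 units) overlapped too. The cholangiocyte sum leaves out Krt19, Ggt1 and Spp1, which did not pass the filter. Of the T cell markers Cd2, Cd28, Cd3d, Cd3g and Cd8a none passed the filter on dim probe sets.

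Of 34 genes of pancreas, fat and muscle on the array 11 were measured, with a summed signal of 792 to 1245 units deficient and 1042 to 2129 units supplemented. Of the 11, 4 were higher and 7 lower. The 3 lower at an unadjusted p under 0.05, against 4.95% of all genes, were Ins2, Lep and Cela2a. The pancreatic genes Cpa1, Cpb1, Prss1 and Cel did not pass the filter. Cela2a, a pancreatic elastase gene, did pass it and differed by -0.51 (-0.41 with the ratio). A probe set for insulin, Ins2, was 7.12, 6.92, 6.39 and 6.46 on the deficient and 7.40, 7.34, 7.86, 7.31 and 8.67 on the supplemented arrays. The difference was -0.99 ± 0.33 (SE), or -0.39 with the ratio. The leptin gene Lep had 1 probe set at -0.65 (-0.17 with the ratio, -0.38 without supplemented array 5 and -0.40 with arrays centred on their medians). Another was at 0.99, so its probe sets disagree. The part of such other tissue in the other differences was not tested.

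The remaining lists are given by their counts and medians, beside 0.05 for all genes. Of the genes of glycolysis and gluconeogenesis 13 of 24 were higher (median 0.12), of the urea cycle and ammonia 7 of 12 (0.01), of methionine and sulfur amino acids 8 of 16 (0.01), of amino acid breakdown 13 of 20 (0.07) and of plasma carriers and inhibitors 10 of 14 (0.08). Bile acid synthesis and transport had 5 of 16 higher, none at an unadjusted p under 0.05, with a median of -0.17 that was 0.03 with arrays centred on their medians. The same centring turned the medians of complement (7 of 16 higher, -0.08 to 0.19), the growth hormone and IGF axis (7 of 18, -0.05 to 0.06) and proteasome and ubiquitin genes (14 of 30, -0.05 to 0.22). With the signals as deposited the medians of iron and heme (8 of 14 higher, 0.02 to -0.02), immediate early response (12 of 23, 0.08 to -0.02) and cell cycle genes (11 of 19, 0.12 to -0.06) turned. All 5 measured neutrophil and mast cell markers were lower (median -0.19) and 3 of 5 red blood cell genes higher (0.02), none at an unadjusted p under 0.05.

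**Figure D5:**
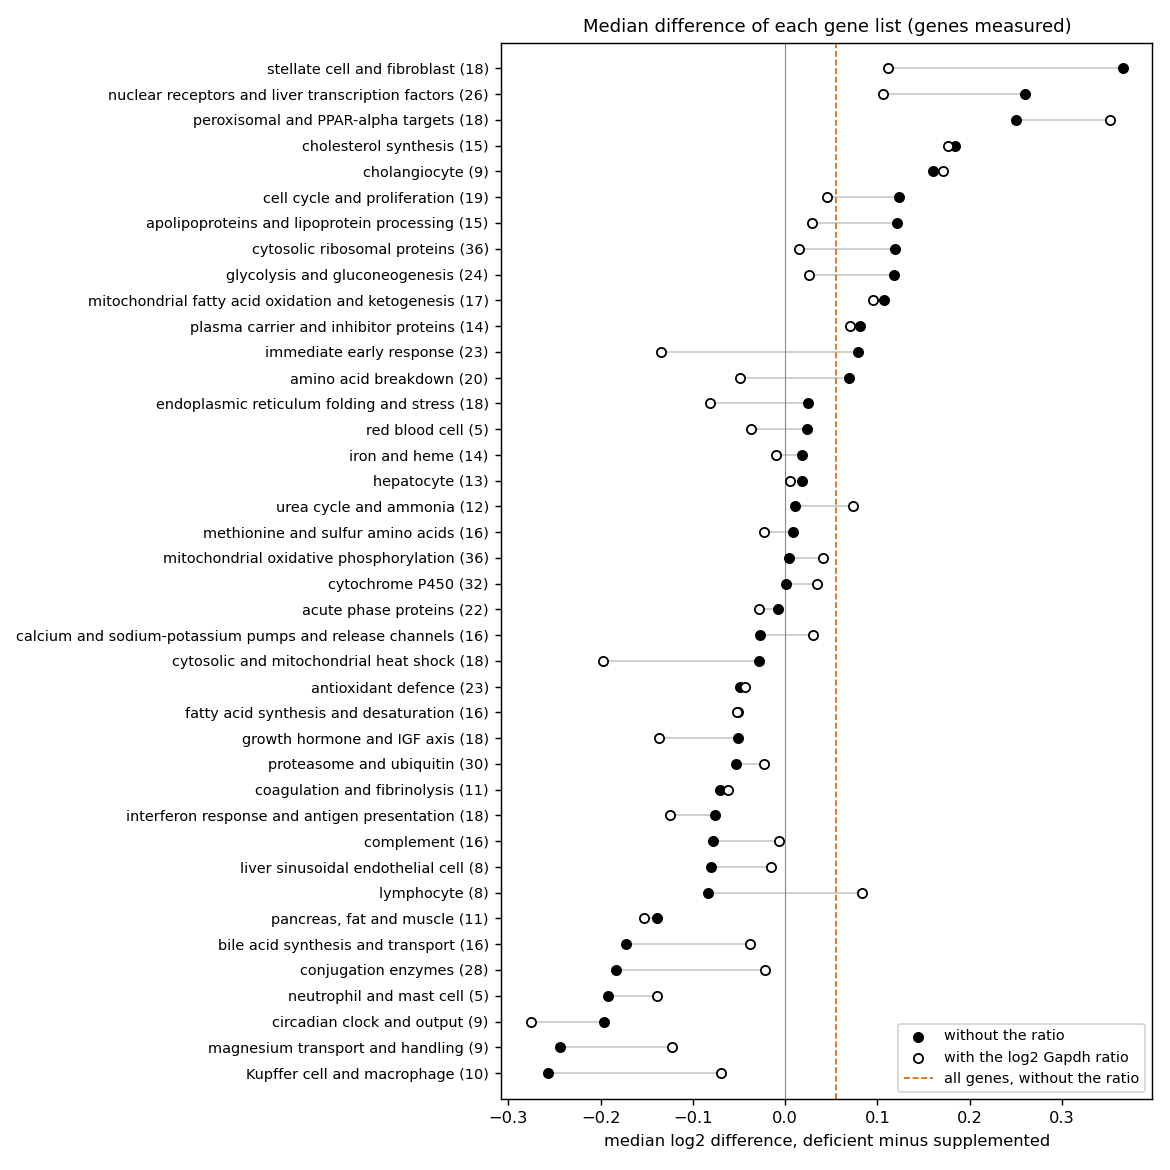
Median log2 difference (x axis, deficient minus supplemented) of the measured genes of each of 40 lists, without (filled) and with (open) the log2 Gapdh ratio in the fit, and the median of all genes (dashed, 0.05). Stellate cell (0.37 to 0.11) and nuclear receptor lists (0.26 to 0.11) move towards 0, whereas the peroxisomal list stays above 0 (0.25 to 0.35).

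Probe sets of the same gene often disagreed. Of 879 genes with several measured probe sets, the sign of the difference was the same in all of them in 463 (52.7%), and in 68 of 113 (60.2%) of those whose brightest probe set had an unadjusted p under 0.05. In 51 genes a probe set made from an expressed sequence tag could be set beside one made from a coding sequence. The tag probe set had the more positive difference in 36 of the 51, by a median of 0.33, and in 30 with the Gapdh ratio in the fit, by a median of 0.06. By array, the median tag minus coding deviation was 0.48, 0.23, 0.29 and -0.44 on deficient arrays 11 to 14 and -0.58, -0.14, -0.37, -0.04 and 0.50 on supplemented arrays 1 to 5. Array 14 and supplemented array 5 were thus opposite to the rest of their diets. Over all measured probe sets, the median difference was -0.19 for the 338 coding sequence probe sets and 0.08 for the 2178 tag probe sets.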

How the data were processed

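The authors deposited intensity values, linear probe set signals, in 1 table of the 14 arrays. On every array the mean after trimming 2% at each end was 150 units, so a common scaling had been applied. The summarising software is not given in the sources used here. Without detection calls it is unknown which dim signals exceed background, and precision is limited by the number of arrays.

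Array medians differed by up to 1.91 times, and log2 signals were quantile normalised without the 59 control probe sets. Lower signals were raised to a floor at the pooled 20th percentile (3.93 units), and probe sets with a mean above the 40th percentile (14.3 units) were kept: 5133 probe sets and 3073 genes. The platform annotation gave 1 symbol to 7006 probe sets, several to 308 and none to 1426, and 6996 had a symbol found in the rat RefSeq gene table. Only single symbols were used, and the probe set with the highest mean stood for a gene.

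The main test was limma 3.58.1 (lmFit and eBayes with a trend) in R 4.3.3 on all 14 arrays with 3 diets, without a covariate. P-values are two-sided, and adjustment is by Benjamini-Hochberg over all probe sets tested. Exact permutation tests were used for array measures. The procedure was tested on simulated data. Fold changes are on the scale of floored signals and understate those of dim genes.

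The members, the 40 gene lists (31 pathways, 9 cell or tissue types) and the tests were chosen with earlier results of these data known. Genes are named by a rule: those called, the 12 higher and 12 lower genes with the smallest p among those at an unadjusted p under 0.05, without overlap and with at most 1 array at the floor, up to 3 members of each list at an unadjusted p under 0.05 (not all are printed), 3 magnesium genes and the 4 genes with the smallest p with the Gapdh ratio. Other genes were named after their values were seen. Among them were Alb, Oas1a, Mvd, Hspa5, Ppara, Bmal1, Dbp, Ehhadh, Aif1, Lyz2, the collagens, the further magnesium genes, Dusp4, Lrrc8a, Hsp90b1 and Hprt1. Alternatives changed the normalisation, floor, filter, arrays, covariate and spread.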

Additional observations from a re-analysis of the deposited data

Results flagged for a closer look

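In 144 groups of 4 or 5 arrays checked, 16 times the most extreme array stood apart from the rest of its diet by Dixon's criterion, which chance alone meets in about 1 of 20 groups. Supplemented array 5 did so most often. It was low in the log2 Gapdh middle/5' ratio (0.063, next 0.35), in the mean rank correlation with the other arrays (0.913, next 0.945), and in the log2 signals of Nrp1 (4.95), Hdac6 (5.22), Ptp4a2 (6.87), F10 (9.33) and Rps24 (4.04), and high in Lep (9.63).

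Deficient array 14 was low in Ppp1r21 (5.67), Ptp4a2 (8.51) and F10 (10.72, next 11.39) and high in F9 (8.43, next 6.76). For Ptp4a2, F9 and F10 this placed it nearer the supplemented arrays. Deficient array 13 was high in Xylt2 (7.19) and Pdgfra (6.82), deficient array 12 low in Mgat2 (4.13), and supplemented array 2 high in Ptp4a1 (10.14).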

How the results depend on the processing

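The count of 1 called probe set became 0 with the signals as deposited, with a filter at the 60th percentile (which drops Crispld2), with only the 2 diets in the fit, with the Gapdh or the beta-actin ratio and without supplemented array 5, standard array 10 and deficient array 13 together. It became 2 without a filter, Crispld2 and Dusp4 (0.39), and 0 to 4 with 1 array left out. Without supplemented array 2 Lrrc8a (2.92) and an unnamed probe set joined Crispld2. Without deficient array 14 Hsp90b1 (-2.13), Hprt1 (-1.48) and an unnamed probe set joined it. At an unadjusted p under 0.05, leaving out 1 array gave 395 to 861 probe sets, 199 to 435 higher and 196 to 426 lower, with the lowest counts without deficient array 13. Centring arrays on their medians gave 653 higher and 173 lower. The Gapdh ratio gave 113, 59 higher and 54 lower. The beta-actin ratio gave 244, 118 higher and 126 lower. Array weights gave 487 lower. With the Gapdh ratio in the fit, 97 to 188 remained when 1 array was left out, 46 to 94 in each direction and most without deficient array 14, and 88 were lower when only the 2 diets were fitted; none was called.

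The Gapdh ratio difference was 0.85 to 1.37 with 1 array left out (exact permutation p up to 0.0571) and the beta-actin difference 0.56 to 1.22 (exact permutation p up to 0.114). Of 1699 gene values under alternatives 1694 kept their direction. The 5 that turned were Gc (0.077) and Uqcrfs1 (0.014) with arrays centred on their medians, and Mug1 (0.31), Plg (0.077) and Pdgfra (-0.0029) with the Gapdh ratio. Most genes checked were chosen for a small p on these same arrays, many without overlap between the diets. Their kept direction was therefore largely set by the choice and is no sign of a stable difference. Sizes moved more, as with the Gapdh ratio for the brightest probe set of F10 (0.80 to 0.06) and for Gclc (-1.01 to -0.11). Crispld2 was past the threshold in 13 alternatives, and none of the other 65 genes checked in any. The medians of the magnesium, cholesterol synthesis, peroxisomal, apolipoprotein and circadian lists kept their sign in all 27 alternatives. So did those of the ribosomal, nuclear receptor, Kupffer, stellate and pancreas, fat and muscle lists. The alternatives reuse the same arrays, and sign was taken against 0 while the median of all genes moved, so this is no sign of a stable difference. With the Gapdh ratio the ribosomal median was 0.015, against 0.018 for all genes. The cause of the changes between alternatives was not tested. The slope without standard array 10 was chosen after the data were seen. No paired analysis was possible because array numbers run on from diet to diet and none is shared.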
